A study of Rattus norvegicus with 19 samples.

Results

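Diacylglycerol kinases and phospholipases D are enzymes that make the signaling lipid phosphatidic acid, and 9 of their symbols were listed for this report. Of these, 7 were among the 17455 gene symbols in the count files, 5 diacylglycerol kinases (Dgka, Dgkg, Dgke, Dgkz and Dgkq) and 2 phospholipases D (Pld1 and Pld2), while Dgkd and Dgkh were not analysed here. The members were matched to the files by symbol.

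Diacylglycerol is released in the membrane when phospholipase C is switched on by receptors for angiotensin, endothelin or noradrenaline, and it activates protein kinase C and other effectors. Diacylglycerol kinases end that signal by phosphorylating diacylglycerol to phosphatidic acid, and phospholipases D form phosphatidic acid directly from phosphatidylcholine. In the heart, the balance of these lipids has been studied mainly in hypertrophic growth of cardiomyocytes.

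RNA was sequenced from the hearts of Sprague-Dawley rats aged 24 weeks at the start, and the study's methods give the tissue as left ventricle of males. Heart failure with preserved ejection fraction (HFpEF) was induced for 5 weeks by L-NAME together with a diet with 60% of kilocalories from lard. L-NAME, an inhibitor of nitric oxide synthesis, was given at 0.5 g/L in drinking water. Controls received no L-NAME, and the study gives their diet as normal chow. After induction, rats with HFpEF were gavaged daily for 4 weeks with empagliflozin (EMPA, an SGLT2 inhibitor) at 0.35 g/kg, pirfenidone (PFD, an antifibrotic drug) at 0.3 g/kg, EMPA and PFD together, or phosphate-buffered saline alone (untreated). The study's methods give 5 weeks of induction, while its discussion speaks of 9 weeks with L-NAME. Whether L-NAME and the diet went on during treatment is thus not settled. The groups were control 5w (n = 3), HFpEF (n = 3), control 9w (n = 3), untreated (n = 3), EMPA (n = 2), PFD (n = 2) and EMPA + PFD (n = 3), each library a biological replicate. The group named HFpEF was taken at week 5, and the untreated and drug-treated groups at week 9. Total counts per library ran from 7430539 to 13017754, and 3 counts corresponded to between 0.2305 and 0.4037 CPM (counts scaled to library size).

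Several libraries went against their labels or stood apart from their groups. All 19 were labelled male, although the treatment protocol gives equal numbers of males and females in each group, and the Y-linked gene Eif2s3y had no counts in HFpEF replicates 1 and 3, in all 3 untreated libraries and in both PFD libraries, against 613 to 1321 counts in the other 12. RT1-CE16, a rat major histocompatibility gene, had at most 3 counts in every control 5w, HFpEF and EMPA library and between 308 and 922 in all others. The atrial light chain gene Myl7 had 37596 counts in untreated replicate 2 and 42729 in control 9w replicate 3, and 9599 in control 9w replicate 1, against 227 and 421 in the other untreated libraries. Ventricular cardiomyocyte genes were present throughout, with 9 of 10 listed markers in the files and none at 0 counts in any library. The EMPA + PFD and untreated groups therefore differed in Eif2s3y as well as in treatment, and these cannot be told apart, whereas EMPA + PFD and control 9w had Eif2s3y and RT1-CE16 counts in all 6 libraries.

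The levels below are TMM-normalized CPM, and they are compared only within a gene because they were not divided by transcript length. A gene was called when the quasi-likelihood F test of edgeR, adjusted by the Benjamini-Hochberg method over 12388 genes, gave an adjusted p below 0.05. Fold changes are on the log2 scale with their SE. In bulk tissue, fewer cells of a type and less RNA per cell cannot be told apart.

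Dgka encodes a calcium-responsive type I diacylglycerol kinase, best known for limiting diacylglycerol signals in T lymphocytes. Its level was 42.6, 51.1 and 47.9 CPM in control 5w, and 69.8, 93.7 and 71.2 CPM in HFpEF. The lowest HFpEF library lay above the highest control library, and Dgka rose 1.66-fold (log2 0.73, SE 0.16, adjusted p = 0.00919). At week 9 the level was 68.7, 81.4 and 65.3 CPM in control 9w and 68.1, 93.5 and 74.4 CPM in untreated hearts. These groups overlapped (log2 0.13, 95% interval -0.22 to 0.48, adjusted p = 0.712). Dgka was at 78.2 and 69.7 CPM under EMPA and at 50.7 and 67.8 CPM under PFD. The EMPA + PFD libraries, at 53.1, 41.0 and 42.5 CPM, were all below every untreated library. The fold change of EMPA + PFD against untreated was -0.79 on the log2 scale (SE 0.16, adjusted p = 0.0135). In order of group means Dgka ran from EMPA + PFD (45.5 ± 6.59 CPM, SD, n = 3) through control 5w, PFD, control 9w, EMPA and HFpEF to untreated (78.6 ± 13.2 CPM, SD, n = 3), and each group overlapped the group below it.

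Dgkg encodes another type I kinase and was measured with few reads, between 8 and 46 counts per library. It was at 1.22, 1.32 and 0.875 CPM in control 5w, 1.19 to 2.87 CPM in HFpEF, and 2.93, 3.57 and 3.49 CPM in control 9w. Untreated hearts had 0.844, 0.812 and 1.58 CPM. The 3 untreated libraries were all below the 3 control 9w libraries, and Dgkg fell 3.09-fold (log2 -1.63, SE 0.39, adjusted p = 0.0464). Under EMPA the level was 3.73 and 5.59 CPM, under PFD 1.20 and 1.23 CPM, and under EMPA + PFD 4.97, 2.63 and 2.61 CPM. High and low groups thus separated at week 9, with control, EMPA and EMPA + PFD libraries at 2.61 CPM or more and untreated and PFD libraries at 1.58 CPM or less. Dgkg was higher in EMPA + PFD than in untreated hearts by 1.65 on the log2 scale (SE 0.39, adjusted p = 0.0198). The libraries low in Dgkg at week 9 were the ones without Eif2s3y counts. Eif2s3y and disease or treatment therefore cannot be told apart between these high and low groups. At week 5, HFpEF replicates 1 and 3, also without Eif2s3y counts, had 2.87 and 2.05 CPM of Dgkg, and replicate 2 had 1.19 CPM. The part of the difference in Eif2s3y was not tested.

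Dgke encodes the type III kinase, which prefers diacylglycerol carrying arachidonic acid and feeds the phosphatidylinositol cycle. It had 30.1, 22.3 and 28.1 CPM in control 5w and 131, 174 and 76.6 CPM in control 9w. Every week 9 control was above every week 5 control, and Dgke rose 4.72-fold between them (log2 2.24, SE 0.38, adjusted p = 0.000859). HFpEF libraries had 22.3, 50.9 and 65.1 CPM, which overlapped control 5w (log2 0.78, adjusted p = 0.146). Untreated libraries had 68.2, 53.3 and 66.7 CPM and lay below all control 9w libraries, without passing the test (log2 -1.02, SE 0.37, adjusted p = 0.154). Dgke ranged from 54.3 to 103 CPM over the 7 drug-treated libraries, which overlapped the untreated ones.

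Dgkz encodes the type IV kinase, which carries ankyrin repeats and is found in the nucleus as well as at membranes. Its level in control 5w was 507, 245 and 279.6 CPM, and in control 9w 731, 783 and 690.5 CPM. The groups did not overlap, and Dgkz was 2.14-fold higher at week 9 (log2 1.10, SE 0.38, adjusted p = 0.0375). That call was lost when any one of control 5w replicates 2 and 3 or the 3 control 9w libraries was left out, with adjusted p values from 0.0567 to 0.135. HFpEF libraries spread from 164 to 591 CPM and untreated libraries from 421 to 755 CPM, and each group overlapped the controls of its week. Drug-treated hearts had 353 to 704 CPM, with no call against untreated hearts.

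Dgkq encodes the type V kinase. It was at 44.6, 47.1 and 46.7 CPM in control 5w and at 61.1, 69.8 and 54.5 CPM in HFpEF. All HFpEF libraries were above all control 5w libraries, but the test was not passed (log2 0.42, SE 0.17, adjusted p = 0.0832). Control 9w had 71.0, 91.1 and 65.0 CPM, again without overlap with control 5w, and here Dgkq was 1.64-fold higher (log2 0.71, SE 0.17, adjusted p = 0.00512). Levels were 46.8, 75.0 and 60.1 CPM in untreated, 76.4 and 70.2 CPM in EMPA, and 50.3 and 50.5 CPM in PFD hearts. EMPA + PFD hearts had 48.6, 36.7 and 39.6 CPM, lower than all EMPA libraries but overlapping the untreated group through untreated replicate 1. The difference from untreated was -0.54 on the log2 scale (SE 0.17, adjusted p = 0.0469), and from EMPA -0.82 (SE 0.18, adjusted p = 0.0203). In the RefSeq gene table for GRCr8, Dgkq overlaps Idua on the opposite strand, and reads of the 2 genes cannot be told apart without strand. Idua had log2 differences of -0.40 (adjusted p = 0.102) and -0.73 (adjusted p = 0.0263) in the same comparisons, and of 0.80 (adjusted p = 0.00236) in control 9w against control 5w.

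Pld1 encodes a phospholipase D that ARF proteins and protein kinase C switch on. It was at 25.1, 39.0 and 36.0 CPM in control 5w, 51.7, 33.1 and 38.5 CPM in HFpEF, and 31.0, 31.4 and 35.1 CPM in control 9w. Neither the disease comparison at week 5 (log2 0.30, adjusted p = 0.378) nor the comparison of controls (log2 -0.04, adjusted p = 0.913) passed the test. Untreated hearts had 24.2, 46.8 and 29.1 CPM, EMPA hearts 18.9 and 28.7 CPM, and PFD hearts 21.6 and 24.2 CPM. EMPA + PFD hearts had 18.7, 16.7 and 17.1 CPM, and each of these was below all 16 other libraries. Pld1 was lower in EMPA + PFD than in untreated hearts by a log2 value of -0.93 (SE 0.24, adjusted p = 0.0279) and than in control 9w by -0.89 (SE 0.24, adjusted p = 0.0128).

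Pld2 encodes the phospholipase D with high basal activity at the plasma membrane. Levels were 65.1, 85.7 and 80.1 CPM in control 5w, 97.7, 124 and 89.6 CPM in HFpEF, and 91.6, 116 and 74.4 CPM in control 9w. HFpEF libraries were above all control 5w libraries without passing the test (log2 0.43, SE 0.17, adjusted p = 0.0917). Untreated hearts had 86.6, 107 and 97.5 CPM, EMPA hearts 96.0 and 88.1 CPM, and PFD hearts 74.3 and 85.4 CPM. EMPA + PFD hearts had 60.5, 44.6 and 54.4 CPM and were again below the other 16 libraries. Pld2 differed from untreated by a log2 value of -0.87 (SE 0.18, adjusted p = 0.0127) and was 1.82-fold lower in the treated group.

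**Figure D1:**
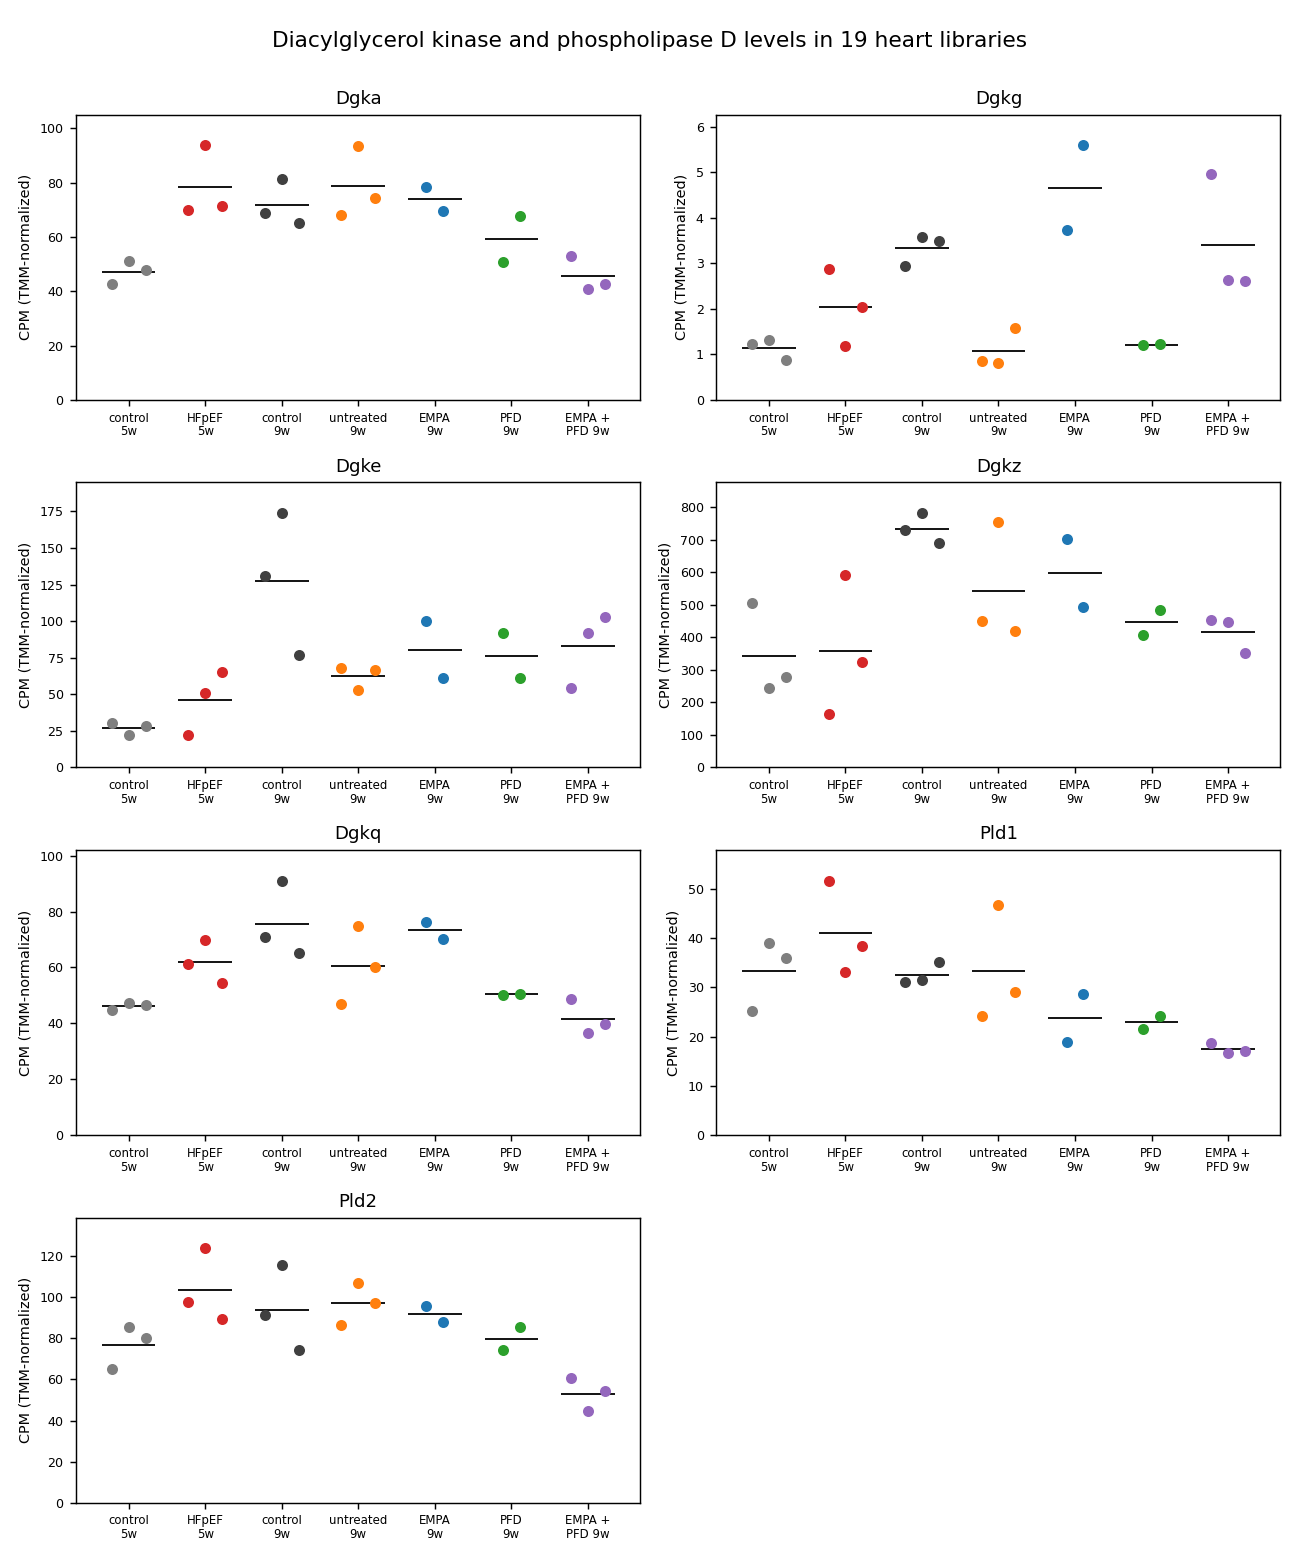
Levels of the 7 genes in TMM-normalized CPM (vertical axes, each starting at 0) in the 7 groups, with a point for each library and a line at each group mean. Pld2 in EMPA + PFD hearts lay between 44.6 and 60.5 CPM, below every other library, and Dgke was highest in control 9w, up to 174 CPM.

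At week 5, the comparison of HFpEF with control 5w asks what induction changed. It called 1 of 7 members, Dgka, where 20.0% of all genes tested were called and 9.83% were called higher. The 2478 calls among all genes became 1498, 1500 and 1490 without control 5w replicates 1 and 3 and HFpEF replicate 2, respectively. Libraries of the compared groups did not overlap for 3 members (Dgka, Dgkq and Pld2), against 37.7% of all genes. The members' median log2 fold change was 0.43, and that of all genes was 0.02. Control 5w replicate 1 stood apart, with ventricular cardiomyocyte markers at 89859 CPM against 36980.4 and 41557 CPM and fibroblast markers at 5392 CPM against 44016 and 35595 CPM. Myl7 had 3779 to 7368 counts in control 5w and 108 to 445 in HFpEF. Endothelial markers were called higher in 5 of 10 and ventricular cardiomyocyte markers lower in 3 of 9, and mesothelial (3 of 4) and Schwann cell markers (3 of 7) were called higher. T lymphocyte markers also moved with this comparison, with 8 of 11 called higher and summed levels of 259, 106 and 176 CPM in HFpEF against 79.7, 131 and 115 CPM in control 5w. Cd4, their most abundant gene by mean over all 19 libraries, was at 141, 35.3 and 86.9 CPM in HFpEF and 54.3, 95.9 and 81.5 CPM in control 5w. HFpEF replicate 2, with the T lymphocyte sum of 106 CPM, had the highest Dgka of these groups, at 93.7 CPM. No marker of the list was at 0, and the part of these cells in the rise of Dgka was not tested. With only the 6 compared libraries in the fit, Dgka had a log2 change of 0.75 and an adjusted p of 0.0530, within a range of 0.000489 to 0.0530 over its alternatives.

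At week 9, untreated against control 9w called 1 of 7 members, Dgkg, with 1.78% of all genes called and 1.19% called lower. Leaving out any of the 6 libraries ended the call, with Dgkg log2 values from -1.99 to -1.45. The 220 calls among all genes became 1015 without untreated replicate 2, 16 and 34 without untreated replicates 1 and 3, and 25 and 8 without control 9w replicates 1 and 2. Erythroid markers were called lower in 2 of 4 and T lymphocyte markers higher in 1 of 11, and their part was not tested. The untreated and HFpEF groups, at weeks 9 and 5 of the model, gave no member call with edgeR or DESeq2, and 1 member, Dgkg, had an unadjusted p below 0.05, as did 2817 of 12388 genes. In that comparison edgeR called 0.226% of all genes, and DESeq2 called 960 of 12388. The 28 genes that edgeR called became 1787 without untreated replicate 2, 401 without HFpEF replicate 2, and 4 to 12 without each of the other libraries.

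The change of the disease effect between weeks was tested directly as untreated minus control 9w, minus HFpEF minus control 5w. It called 3 of 7 members, all lower, where 20.0% of all genes were called and 10.2% were called lower. These were Dgkg (log2 -2.47, SE 0.54, adjusted p = 0.00790), Dgke (log2 -1.79, SE 0.52, adjusted p = 0.0273) and Dgkq (log2 -0.74, SE 0.23, adjusted p = 0.0381). For Dgkg the disease effect was 0.84 at week 5 and -1.63 at week 9, for Dgke 0.78 and -1.02, and for Dgkq 0.42 and -0.32. Without both HFpEF libraries that lacked Eif2s3y, an alternative chosen after seeing the data, Dgkg had a log2 value of -1.69 and an adjusted p of 0.0823, and its adjusted p ranged from 0.000554 to that value over its alternatives. Leaving out control 5w replicate 2, HFpEF replicate 2, control 9w replicate 1 or 2, or untreated replicate 1 left 1 call, Dgkg. Over the alternatives other than the 2-fold minimum, the call was lost in 11 of 20 for Dgkq and in 6 of 20 for Dgke. Of all genes, the 2473 calls became 1594 and 1469 without control 9w replicates 1 and 2 and 1321 without untreated replicate 1. Idua had a log2 value of -0.73 (adjusted p = 0.0369) beside Dgkq, and endothelial markers were called lower in 4 of 10. Ventricular cardiomyocyte markers were called higher in 3 of 9, and erythroid and mesothelial markers lower in 3 of 4 and 2 of 4, and the part of these cells was not tested.

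Between control hearts, 5 of 7 members were called, all higher at week 9, where 34.5% of all genes were called and 17.3% were called higher. All 5 were kinases: Dgka (log2 0.61, adjusted p = 0.0116), Dgkg (1.54, adjusted p = 0.00700), Dgke, Dgkz and Dgkq. The same 5 members did not overlap between the groups, against 49.4% of all genes. Neither phospholipase D passed the test, with log2 values of -0.04 for Pld1 and 0.29 for Pld2. The control groups also differed in RT1-CE16, with at most 1 count in each week 5 library and 825 to 922 counts at week 9. Without control 9w replicate 2, calls remained for Dgke, Dgkg and Dgkq, and the 4276 calls among all genes became 2586. Cell type markers also moved: 9 of 10 endothelial markers were called higher, from summed levels of 2379, 1870.1 and 2167 CPM to 5046, 5373 and 4336 CPM, and 7 of 8 fibroblast markers were called lower. Fibroblast markers summed to 5392, 44016 and 35595 CPM in control 5w and 5127, 3678 and 5289.7 CPM in control 9w. Vwf and Col3a1 were the most abundant genes of these lists by mean over all 19 libraries, and none of their markers was at 0 counts. Macrophage markers were called lower in 6 of 10 and atrial markers higher in 3 of 6, and the part of these cells in the members' rise was not tested.

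The comparison of EMPA + PFD with untreated hearts asks what the combined treatment changed. It called 5 of 7 members, where 12.1% of all genes were called. Dgka, Dgkq, Pld1 and Pld2 were lower, against 5.52% of all genes called lower, and Dgkg was higher, against 6.60% called higher. Dgke (log2 0.41, adjusted p = 0.449) and Dgkz (log2 -0.38, adjusted p = 0.499) did not pass. Libraries did not overlap for 4 members, all those called except Dgkq, against 37.4% of all genes. The members' median log2 change was -0.54, beside -0.03 over all genes. Of all genes, the 1501 calls became 110 without EMPA + PFD replicate 2, 140 without untreated replicate 2, 313 without EMPA + PFD replicate 3, 417 without untreated replicate 3 and 2263 without untreated replicate 1. Without untreated replicate 2, the library high in atrial genes, no member was called, and the log2 values were -0.65 for Dgka, 1.48 for Dgkg, -0.36 for Dgkq, -0.60 for Pld1 and -0.79 for Pld2. Without EMPA + PFD replicate 2 no member was called either, without EMPA + PFD replicate 3 the calls were Dgkg and Pld2, and without untreated replicate 3 they were Dgka, Dgkg and Pld2. Fitted on the 6 compared libraries alone, no member and 5 of 11505 genes were called, with log2 values of -0.80 for Dgka, 1.64 for Dgkg, -0.55 for Dgkq, -0.94 for Pld1 and -0.88 for Pld2. Dgkq lost its call in 9 of 13 alternatives, not counting the 2-fold minimum.

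Calls of cell type markers in this comparison stand beside the 12.1% of all genes called. Atrial markers were called lower in 2 of 6, with a median log2 change of -6.73, and erythroid markers higher in 1 of 4. Endothelial markers summed to 2758, 2542 and 2593 CPM in EMPA + PFD and 3828, 4286 and 4212 CPM in untreated hearts, without overlap, although only 1 of 10 was called lower. Vwf, their most abundant gene by mean over all 19 libraries though not in each library, was at 377, 388 and 464 CPM against 527, 1021 and 424 CPM. Ventricular cardiomyocyte markers summed to 70503, 103509.9 and 85857 CPM against 70879, 19728 and 56774 CPM, and 1 of 9 was called higher. The part of these cells in the lower levels of Dgka, Dgkq, Pld1 and Pld2 was not tested.

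Neither drug alone gave a member call against untreated hearts with edgeR. For EMPA, edgeR called 0.0404% of all genes and 1 member, Dgkg, had an unadjusted p below 0.05 (log2 2.11, SE 0.41, unadjusted p = 0.000133), as did 1069 of 12388 genes. DESeq2 called that 1 member among 95 genes. The EMPA and untreated libraries also differed in Eif2s3y, with 676 and 789 counts against 0 in each untreated library. RT1-CE16 had 0 counts in each EMPA library and 583 to 684 in untreated. These differences cannot be told apart from the treatment. For PFD, edgeR called 0.00807% of all genes and Dgka was the 1 member with an unadjusted p below 0.05 (log2 -0.41, SE 0.18, adjusted p = 0.786), beside 646 of 12388 genes, while DESeq2 called 0 members among 5 genes. The interaction of EMPA and PFD called no member with edgeR or DESeq2, with 0 of 7 members and 1131 of 12388 genes at an unadjusted p below 0.05. Of all genes, edgeR called 0.00807% and DESeq2 called 54 genes. The 1 gene called by edgeR became 4 and 7 without EMPA + PFD replicates 1 and 2, respectively. Among single libraries left out, the largest rise came without EMPA replicate 2, which left 1 EMPA library. The intervals were wide, such as -0.84 to 0.26 for Dgka and -1.10 to 0.08 for Pld2.

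Adding PFD to EMPA, tested as EMPA + PFD against EMPA, called 3 of 7 members lower, Dgka (log2 -0.70, adjusted p = 0.0317), Dgkq and Pld2 (log2 -0.79, adjusted p = 0.0263). Of all genes, 9.71% were called and 4.42% were called lower. All 3 calls were lost without either EMPA library, or without EMPA + PFD replicate 2 or 3, and with the replicate number as a block only Dgkq was called. These groups also differed in RT1-CE16, with 0 counts in each EMPA library and 308 to 720 in EMPA + PFD. The 1203 calls among all genes became 90 and 7 without EMPA replicates 1 and 2, and 123 and 235 without EMPA + PFD replicates 2 and 3. Smooth muscle and pericyte markers were called lower in 3 of 8, Schwann cell markers in 2 of 7 and erythroid markers in 2 of 4, and their part was not tested. Adding EMPA to PFD called no member with edgeR or DESeq2, where edgeR called 0% of all genes and DESeq2 102 genes. Without EMPA + PFD replicate 1, edgeR called 15 genes and no member. With all libraries, 2 members, Dgkg (log2 1.47, SE 0.44) and Pld2 (log2 -0.59, SE 0.19), had an unadjusted p below 0.05. The same held for 1266 of 12388 genes. The PFD and EMPA + PFD libraries differed in Eif2s3y too, with 0 counts in each PFD library and 825 to 999 in EMPA + PFD. That difference cannot be told apart from the treatment.

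Against control 9w, where Eif2s3y and RT1-CE16 were also present although at other levels, EMPA + PFD called 4 of 7 members, all lower: Dgka (log2 -0.66, adjusted p = 0.00819), Dgkq (log2 -0.86, adjusted p = 0.00224), Pld1 and Pld2 (log2 -0.82, adjusted p = 0.00366). Of all genes, 33.8% were called and 16.6% were called lower, and the 4181 calls became 2571 without control 9w replicate 2 and 2476 without EMPA + PFD replicate 2. Dgkz joined these in not overlapping, making 5 members against 51.2% of all genes. Leaving out EMPA + PFD replicate 2 moved the adjusted p of Pld1 to 0.0526, the highest over its alternatives, which began at 0.00184, and the other 3 genes were called in each alternative except the 2-fold minimum. Endothelial markers were called lower in 8 of 10 in this comparison and ventricular cardiomyocyte markers higher in 4 of 9. Atrial markers were called lower in 5 of 6 and erythroid markers in 3 of 4, and the part of these cells was not tested. Idua, which overlaps Dgkq, was lower too (log2 -0.77, adjusted p = 0.00328). Dgkg did not pass the test against control 9w (log2 0.03, 95% interval -0.74 to 0.79).

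Against HFpEF at week 5, EMPA + PFD again called Dgka (log2 -0.78), Dgkq (log2 -0.57), Pld1 (log2 -1.23) and Pld2 (log2 -0.96), 4 of 7 members and all lower. The adjusted p values were 0.00222, 0.0129, 0.00158 and 0.00106. In this comparison 46.8% of all genes were called and 24.5% were called lower. It shares the EMPA + PFD libraries with the preceding comparisons, and it also spans the 4 weeks between the groups. Pld1 had an adjusted p of 0.0518 without both HFpEF libraries that lacked Eif2s3y, an alternative chosen after seeing the data, with a range from 2.59e-05 to 0.0518. Dgkq lost its call without EMPA + PFD replicate 2 or 3, with an adjusted p of at most 0.0694. Macrophage markers (9 of 10), T lymphocyte markers (10 of 11) and fibroblast markers (6 of 8) were called lower and ventricular cardiomyocyte markers higher (7 of 9). B lymphocyte and erythroid markers were also called lower (3 of 4 each), as were Schwann cell markers (4 of 7). Mesothelial (2 of 4), smooth muscle and pericyte (4 of 8), endothelial (2 of 10) and adipocyte markers (1 of 4) were called lower too. The part of these cells was not tested. RT1-CE16 separated these groups as well, with at most 3 counts in HFpEF and 308 to 720 in EMPA + PFD.

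**Figure D2:**
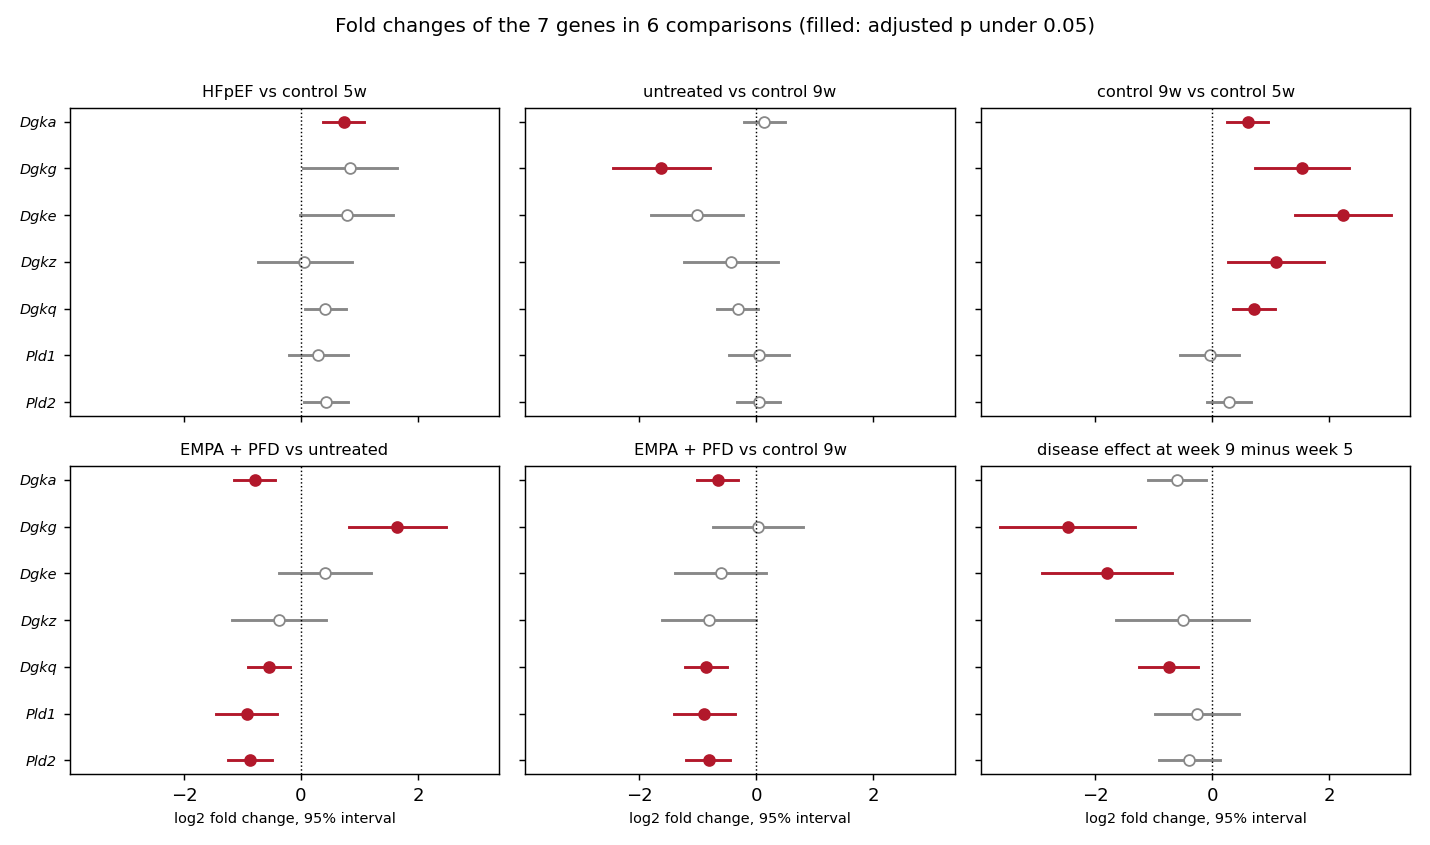
Log2 fold changes of the 7 genes (points) with 95% confidence intervals (lines) in 6 comparisons, filled where the adjusted p from edgeR was below 0.05. Dgka, Dgkq, Pld1 and Pld2 lay below 0 in EMPA + PFD against both untreated and control 9w hearts, and Dgkg was at 1.65 against untreated and at 0.03 against control 9w.

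**Figure D3:**
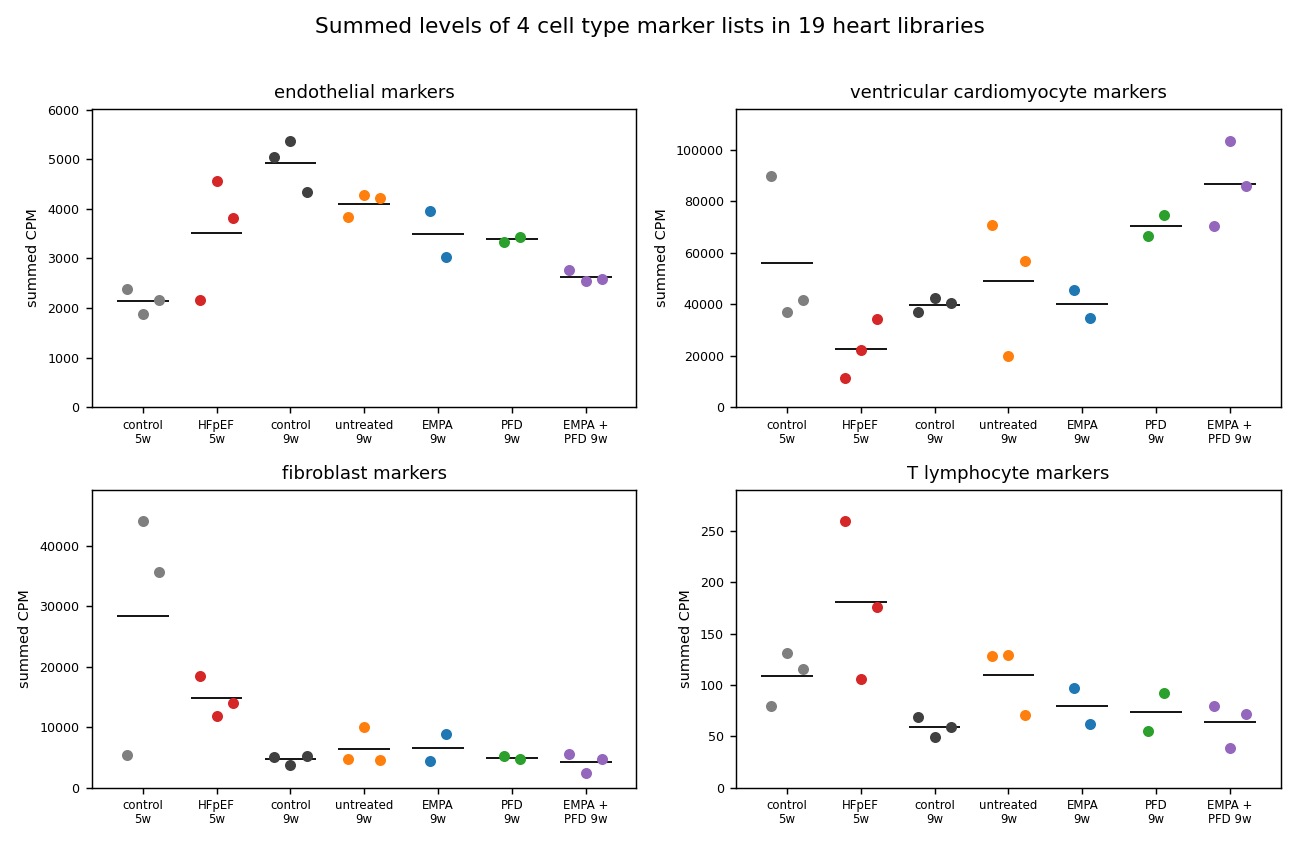
Summed TMM-normalized CPM of 4 marker lists (vertical axes, starting at 0) in the 7 groups, with a point for each library and a line at each group mean. Endothelial markers were between 2542 and 2758 CPM in EMPA + PFD hearts and between 3828 and 4286 CPM in untreated hearts.

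The profiles of Dgka, Dgkq and Pld2 over the 19 libraries were close to each other. The root mean square difference of centred log2 CPM was 0.17 between Dgka and Pld2, 0.19 between Dgka and Dgkq and 0.21 between Dgkq and Pld2, where the median gene differed from Dgka by 0.53. Dgkg and Dgke were at 0.86 and 0.81 from Dgka, and the member nearest to Dgke was Dgkz, at 0.59, where the median gene differed from Dgke by 0.88. By this measure the nearest genes were Pwwp3a, Grk6 and Dock6 for Dgka (0.13 to 0.14), Atg16l2, Arhgef1 and Irf3 for Dgkq (0.09 to 0.11), and Ralb, RT1-M3-1 and Grk6 for Pld2 (0.11 to 0.13). Nearest to Dgke were Pim3, Hap1 and Snrk (0.26 to 0.31), and to Dgkz C2cd5, Mapk12 and Ccdc62 (0.22 to 0.25). Nearest to Dgkg were Anks4b, Mir6326 and Morn5, at 0.52 to 0.54. The measure grows with a gene's own spread, whose root mean square about the mean was 0.78 for Dgkg and 0.36 for Dgka. Dgkg also had only 8 to 46 counts per library.

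Promoter sequence is shown for the 4 genes that were lower together in EMPA + PFD hearts. Each is 300 bases around a transcript start in RefSeq for GRCr8, 5′ to 3′, and matches of the GC box GGGCGG, the CCAAT box CCAAT or the TATA box TATAAA on either strand are in capitals. Over 33469 promoters of the table, 33.1% held a GC box, 37.5% a CCAAT box and 14.2% a TATA box. Pld2 had 5 GC boxes, Dgkq had 2, Dgka had 2 CCAAT boxes, and none of these letters was in the Pld1 window. The Dgka and Pld1 windows lie inside the genes, and other transcript starts were not examined. These 4 windows shared no one of the 3 motifs, and G and C made up 72.3% of bases in Pld2 and 46.3% in Pld1, against a median of 51.7%.
Dgka, chr7:1759520-1759819, minus strand: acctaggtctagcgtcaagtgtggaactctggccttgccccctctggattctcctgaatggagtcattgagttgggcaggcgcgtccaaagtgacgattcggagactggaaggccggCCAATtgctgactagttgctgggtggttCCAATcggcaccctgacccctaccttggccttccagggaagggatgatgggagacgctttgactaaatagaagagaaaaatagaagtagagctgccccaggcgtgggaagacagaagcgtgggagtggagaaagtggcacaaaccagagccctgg
Dgkq, chr14:1203325-1203624, plus strand: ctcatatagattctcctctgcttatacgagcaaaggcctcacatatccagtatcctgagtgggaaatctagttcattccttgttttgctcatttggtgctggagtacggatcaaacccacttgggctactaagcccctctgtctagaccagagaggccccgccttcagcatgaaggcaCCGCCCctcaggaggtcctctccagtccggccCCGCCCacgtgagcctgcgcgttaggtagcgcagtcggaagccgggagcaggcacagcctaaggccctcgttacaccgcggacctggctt
Pld1, chr2:112821926-112822225, plus strand: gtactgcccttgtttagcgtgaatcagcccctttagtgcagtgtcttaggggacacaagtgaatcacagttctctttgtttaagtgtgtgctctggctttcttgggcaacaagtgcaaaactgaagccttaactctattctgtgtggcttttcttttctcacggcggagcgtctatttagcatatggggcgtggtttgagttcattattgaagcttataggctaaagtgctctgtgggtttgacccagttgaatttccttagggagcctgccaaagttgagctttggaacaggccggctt
Pld2, chr10:55754746-55755045, plus strand: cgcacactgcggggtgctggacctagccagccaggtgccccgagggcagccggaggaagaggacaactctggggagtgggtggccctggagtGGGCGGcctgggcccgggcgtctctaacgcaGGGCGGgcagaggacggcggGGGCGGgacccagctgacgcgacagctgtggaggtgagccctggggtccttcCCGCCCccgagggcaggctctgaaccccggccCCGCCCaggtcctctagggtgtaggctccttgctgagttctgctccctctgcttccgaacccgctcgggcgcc

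Other genes of the pathway were counted from 7 lists, to be read beside the 12.1% of all genes called with all libraries in EMPA + PFD against untreated hearts, 6.60% higher and 5.52% lower. In this comparison, 0 of 10 phospholipases C tested and 0 of 5 other kinases and phospholipases D passed the test. Of 10 phosphatidate phosphatases, which turn phosphatidic acid back into diacylglycerol, 1 was higher, Lpin1 (log2 1.72, SE 0.37, adjusted p = 0.0150). Of 11 genes of phosphatidate synthesis and use, 2 were higher, Gpam (log2 1.55, adjusted p = 0.00903) and Agpat2 (log2 0.87, adjusted p = 0.0261), whose enzymes acylate glycerol phosphate and lysophosphatidic acid, respectively. Among 11 genes of other enzymes that convert or release diacylglycerol, Pnpla2 (log2 1.67), whose lipase releases it from triacylglycerol, and Dgat2 (log2 1.57), whose enzyme turns it into triacylglycerol, were higher. Of 19 diacylglycerol effectors, the kinase gene Prkce was higher (log2 1.52, adjusted p = 0.00677), and Rasgrp4 (log2 -1.06) and Prkd3 (log2 -0.53) were lower. Of 14 phospholipase D activators, Cyth1 was higher (log2 0.82), and Ralb (log2 -0.78, adjusted p = 0.00700), Cyth3 (log2 -0.67) and Arf6 (log2 -0.46) were lower.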

How the data were processed

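RNA was sequenced from 19 rat heart libraries, and the authors deposited raw counts per gene symbol, whole numbers with no normalization. The submitters' processing notes name Trim Galore, FastQC, HISAT2, HTSeq, DESeq2 and the build rn6. The strand setting is not given in the sources used here. Genes were filtered by filterByExpr and scaled by TMM in edgeR 4.0.16 (R 4.3.3), and 12388 genes were fitted in a 7-group model with glmQLFit and glmQLFTest, which shares the spread over all groups. The biological coefficient of variation was 0.257. Calls used a Benjamini-Hochberg adjusted p below 0.05. Likeness used log2 CPM with a prior count of 2. The fits were tested on simulated data. Total counts of 7430539 to 13017754 per library set the counting precision. The members and lists were chosen with earlier results of these data known.

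The genes named from each pathway list were at most 3 higher and 3 lower per comparison, with the largest changes. Of 14 marker lists in EMPA + PFD against untreated, calls were 1 of 9 ventricular cardiomyocyte and 1 of 4 erythroid markers higher, 1 of 2 Y chromosome markers higher, and 2 of 6 atrial and 1 of 10 endothelial markers lower. No marker was called for fibroblasts, smooth muscle and pericytes, macrophages, T lymphocytes, B lymphocytes, Schwann cells, adipocytes, mesothelium or skeletal muscle. Alternatives were RLE factors, no filter, 10 counts in every library, DESeq2 1.42.0, the compared groups only, a replicate block, a 2-fold minimum, each library left out, and, chosen after seeing the data, both libraries high in atrial genes left out and both HFpEF libraries without Eif2s3y left out of further comparisons.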

Additional observations from a re-analysis of the deposited data

Results flagged for a closer look

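The disease effect differed between weeks 9 and 5 for 3 of 7 members, beside 20.0% of all genes and 10.2% called lower, when the difference itself was tested in edgeR with adjustment by Benjamini-Hochberg. Dgkg had a difference of -2.47 on the log2 scale (SE 0.54, adjusted p = 0.00790), with 3 of 3 untreated libraries below the control 9w libraries and 2 of 3 HFpEF libraries above the control 5w libraries. Dgke had a difference of -1.79 (SE 0.52, adjusted p = 0.0273), with 3 of 3 untreated libraries below and 2 of 3 HFpEF libraries above their controls. Dgkq had a difference of -0.74 (SE 0.23, adjusted p = 0.0381), with 3 of 3 HFpEF libraries above their controls and 2 of 3 untreated libraries below all of theirs. Apart from the 2-fold minimum, which left 2 of the 3 called, the call was lost in 11 of 20 alternatives for Dgkq, in 6 of 20 for Dgke and in 1 of 19 for Dgkg. The libraries also differed in Eif2s3y, which 2 of 3 HFpEF and 0 of 3 control 5w libraries lacked at week 5, and 3 of 3 untreated and 0 of 3 control 9w libraries lacked at week 9.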

How the results depend on the processing

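The 2-fold minimum is given below by counts of members alone and is not in the totals that follow. No called member changed sign in the other alternatives. Over 26 called member values and 349 values under them, 269 calls were kept and 80 lost. The cause of the changes below was not tested, except that leaving libraries out or fitting only the compared groups leaves fewer samples. With a 2-fold minimum, members called fell from 1 to 0 in HFpEF against control 5w, from 5 to 3 between controls, from 5 to 1 in EMPA + PFD against untreated, from 3 to 0 against EMPA, and from 4 to 0 against control 9w and 4 to 1 against HFpEF. Fitted on the compared groups only, counts were 0 for HFpEF against control 5w, 0 for untreated against control 9w and 0 for EMPA + PFD against untreated. In this setting EMPA + PFD against control 9w rose from 4 to 5 with Dgkz, and the difference of disease effects fell from 3 to 2. Counts stayed at 5 between controls, and at 3 and 4 for EMPA + PFD against EMPA and HFpEF. Untreated against control 9w also gave 0 with no filter and 0 with 10 counts in every library, which removed Dgkg. DESeq2 called 1 member in EMPA against untreated, where edgeR called 0. Without both libraries high in atrial genes, EMPA + PFD against untreated called 1 member, Pld2, and untreated against control 9w called 1, Dgkq in place of Dgkg.

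With single libraries left out, members called ranged from 1 to 2 in HFpEF against control 5w, were 0 throughout in untreated against control 9w, and ranged from 3 to 5 between controls, 0 to 5 in EMPA + PFD against untreated, 0 to 3 against EMPA, 3 to 4 against control 9w, 3 to 5 against HFpEF and 1 to 4 for the difference of disease effects. Where an arm was left with 1 library, that library was assumed to vary like the other groups.

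The replicate block called 1 member, Dgkq, in EMPA + PFD against EMPA and 0 in untreated against control 9w, and 4 in EMPA + PFD against untreated. The libraries share only a number, because in 0 of 7 comparisons with 3 same-numbered pairs did every pair's deviations correlate above 0.1. Of the 7 members, depth limited Dgkg most, at 8 to 46 counts per library.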

Other observations

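Of the other family members, Dgkb, a neuronal type I diacylglycerol kinase, was at 16.4, 43.3 and 31.3 CPM in EMPA + PFD hearts and at 5.08, 8.12 and 4.39 CPM in control 9w hearts. The groups did not overlap, and Dgkb was 5.20-fold higher (log2 2.38, SE 0.42, adjusted p = 0.00141 by edgeR with Benjamini-Hochberg adjustment). Untreated hearts had 20.3, 6.74 and 13.9 CPM, and the difference from EMPA + PFD did not pass the test (log2 1.16, adjusted p = 0.0655). EMPA + PFD replicates 2 and 3 were the highest of the 19 libraries in Dgkb and had the lowest Pld2.

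Pld4, an endolysosomal nuclease of myeloid cells with phospholipase D motifs, was at 103, 31.8 and 62.9 CPM in HFpEF and 18.3, 10.6 and 20.5 CPM in EMPA + PFD hearts (log2 -2.00, SE 0.39, adjusted p = 0.00156). Macrophage markers moved with it, 9 of 10 being called lower in the same comparison, and their part in it was not tested. Pld3 was also lower there (log2 -1.12, SE 0.35, adjusted p = 0.0181). Between controls Pld4 was lower at week 9 (log2 -1.27, SE 0.39, adjusted p = 0.0206). Macrophage markers were called lower in 6 of 10 between controls too, and their part was not tested. Dgki was higher in control 9w than in control 5w (log2 2.18, SE 0.66, adjusted p = 0.0199). Its counts were 2, 4 and 10 at week 5 and 11, 9 and 37 at week 9, the last in the replicate high in atrial genes.

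The groups had 2 or 3 libraries each, and Eif2s3y, RT1-CE16 and atrial genes differed between some of them along with treatment or week, so that these cannot be told apart in the comparisons affected. Transcript levels say nothing of kinase or phospholipase activity or of the lipids, which were not used here. Bulk tissue does not separate cell types, and the part of cell composition was not tested. The drugs alone were compared with 2 libraries each. Comparisons that share the EMPA + PFD or untreated libraries are not independent of each other.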
